A study of Mus musculus with 11 samples.

Results

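The Grem1 Cd81 stromal cells of the mouse small intestine are fibroblasts whose single-cell libraries hold UMIs of Grem1, a secreted antagonist of bone morphogenetic proteins (BMPs), together with UMIs of Cd81, a tetraspanin of the cell surface. They were chosen by measured UMI counts in the library of sorted PDGFRA reporter cells by a gate on 7 genes. A cell had to have 3 or more unique molecular identifiers (UMIs, each a tagged molecule) of Grem1 and 1 or more of Cd81. It also had to have none of Pi16 or Ptprc and at most 1 UMI of Bmp3, Bmp7 and Sox6 together, after cells with fewer than 500 genes or with 10% or more mitochondrial UMIs were left out. The gate took 384 of the 3890 cells kept in that library, which is 9.87% (exact 95% interval 8.95% to 10.9%), and 16156 cells were kept over all 3 single-cell libraries.

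The sorted library came from EGFP-positive cells of PDGFRA-H2BEGFP mice, whose Pdgfra locus drives a nuclear green protein, with GFPlo and GFPhi cells mixed at 2:1. The other single-cell data were 2 libraries labelled whole mesenchyme, for which no strain was given and whose labels repeat the sorting text of the sorted library. Bulk RNA-seq covered 2 libraries of PDGFRAlo stromal cells and 2 of PDGFRA-high telocytes from the reporter mice, and 2 libraries each of blood and lymphatic endothelium from C57BL/6 mice. All cells came from the entire small intestine after the muscle had been stripped and the epithelium removed, and the reporter reads any cell with an active Pdgfra locus, not 1 fibroblast type. Age, sex and the number of animals per library were not in the labels used here, so p-values measure only the spread between these libraries.

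Intestinal stem cells sit at the base of the crypts, where Wnt and R-spondin signals hold them in division, and BMP signals rise towards the villus and drive differentiation. Antagonists such as gremlin, chordin-like and follistatin proteins bind BMP or activin ligands outside the cell and keep them from their receptors. Fibroblasts and telocytes under the epithelium make both the ligands and the antagonists, and the study sets such populations beside each other.

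Against the Grem1 Cd81 cells stood 1344 Grem1-0 cells of the same library, which had no Grem1 UMI and at most 1 UMI of Bmp3, Bmp5, Bmp7 and Sox6 together. A second group, the telocyte-gated cells, had 5 or more UMIs of Bmp3, Bmp7 and Sox6 and no Grem1 (330 cells), and 64 of the Grem1-0 cells had Pi16 and no Ptprc (the Pi16 cells). Median depth was 5477.5 UMIs in the Grem1 Cd81 cells, 4396 in the Grem1-0 cells, 4774.5 in the Pi16 cells and 5771.5 in the telocyte-gated cells. Of the 741 cells with 3 or more Grem1 UMIs, 233 had no Cd81 UMI, 118 of the rest had Pi16, 6 more passed the limit on BMP genes, and none was lost to Ptprc. A doublet score past 0.25 marked 7 Grem1 Cd81 cells, none of the Grem1-0 cells and 1 telocyte-gated cell. The sorted library shared 1 cell barcode with the first whole-mesenchyme library and none with the second, and those shared 9.

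The label was checked on 3 markers that the gate did not use, and all 3 were present. Ackr4, a decoy receptor that removes chemokines, had a UMI in 82.6% of Grem1 Cd81 cells, 17.4% of Grem1-0 cells and 4.24% of telocyte-gated cells. Cilp, a matrix protein first described in cartilage, had a UMI in 76.0%, 11.6% and 9.09% of the same groups in that order. Prss23, a secreted serine protease, had a UMI in 99.5%, 53.0% and 18.5%. After every cell was thinned to 1800 UMIs, which left out 8 Grem1 Cd81 cells, 161 Grem1-0 cells and no telocyte-gated cell, the shares with Ackr4 were 59.0%, 9.04% and 1.52%, and the order of the groups was the same. Barcodes with 20 or fewer UMIs, which hold mostly free RNA, held Ackr4 at 219 and Prss23 at 472 counts per 1e+06 UMIs. In the Pi16 cells, before thinning, Ackr4, Cilp and Prss23 had a UMI in 40.6%, 46.9% and 78.1% of cells. By level, Ackr4 and Prss23 were 2-fold or more higher in the Grem1 Cd81 cells than in the Pi16 cells, and Cilp was not. Pdgfra itself had a UMI in 49.0% of Grem1 Cd81 cells, 43.8% of Grem1-0 cells and 98.8% of telocyte-gated cells.

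The promoters of the gate gene and of 2 of the markers are shown because the 3 genes were high in the same cells. Each window runs from 250 bases before to 50 after the RefSeq start (GRCm38.p6), 5′ to 3′ on the gene's own strand, and capitals mark matches on either strand to the TATA motif (TATAAA), the nuclear factor Y motif (CCAAT), the GC box (GGGCGG) or the AP-1 motif (TGANTCA). Grem1 lies on the minus strand (chr2:113758599-113758898), Ackr4 on the minus strand (chr9:104126594-104126893) and Cilp on the plus strand (chr9:65264930-65265229).
Grem1: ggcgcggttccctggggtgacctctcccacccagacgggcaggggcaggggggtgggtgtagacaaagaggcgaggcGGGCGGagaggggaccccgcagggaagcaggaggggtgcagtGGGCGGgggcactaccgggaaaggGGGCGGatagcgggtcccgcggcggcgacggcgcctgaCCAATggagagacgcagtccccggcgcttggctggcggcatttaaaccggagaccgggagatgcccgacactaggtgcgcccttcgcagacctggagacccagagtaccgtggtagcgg
Ackr4: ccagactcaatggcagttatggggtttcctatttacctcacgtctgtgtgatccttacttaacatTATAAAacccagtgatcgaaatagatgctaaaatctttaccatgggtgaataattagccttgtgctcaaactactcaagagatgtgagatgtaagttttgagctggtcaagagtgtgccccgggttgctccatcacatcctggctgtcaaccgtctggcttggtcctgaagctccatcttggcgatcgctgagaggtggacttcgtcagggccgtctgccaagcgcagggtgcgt
Cilp: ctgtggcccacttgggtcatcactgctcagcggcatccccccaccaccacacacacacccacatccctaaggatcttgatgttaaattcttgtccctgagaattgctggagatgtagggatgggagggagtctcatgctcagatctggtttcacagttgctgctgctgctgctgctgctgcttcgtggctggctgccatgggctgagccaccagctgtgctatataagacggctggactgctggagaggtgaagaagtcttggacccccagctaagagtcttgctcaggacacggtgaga
The Grem1 window held the GC box at 3 places and the nuclear factor Y motif at 1, the Ackr4 window held the TATA motif at 1, and the Cilp window held none of the 4. Of 32851 mouse promoter windows of the same length, 35.7% hold the GC box, 37.4% the nuclear factor Y motif, 13.6% the TATA motif and 7.81% the AP-1 motif, so the 3 windows share no motif of this set.

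Levels in the sorted library are UMIs as counts per 1e+06 UMIs (CPM) with the gate genes left out, and intervals are exact 95% Poisson limits that cover counting error only. As the sorted cells are 1 library and the gate was built on them, these levels are a description with no test. Ackr4 stood at 668 CPM in Grem1 Cd81 cells, against 78.6 in Grem1-0 cells, a fold of 8.49 (7.64 to 9.46). Cilp stood at 454 against 48.9, a fold of 9.29 (8.12 to 10.6), and Prss23 at 2343 against 345, a fold of 6.79 (6.44 to 7.15). Among 10705 genes with 20 or more UMIs in either group, 261 (2.44%) were 2-fold or more higher in the Grem1 Cd81 cells and 970 (9.06%) were 2-fold or more lower. The median log2 fold over all of these genes was -0.17.

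The genes with the largest folds higher included several cell-surface and matrix proteins. Cldn10, a tight-junction claudin, stood at 157 CPM in Grem1 Cd81 cells and 7.74 in Grem1-0 cells, a fold of 20.3 (14.8 to 28.4). Chodl, a C-type lectin of the membrane, stood at 164 against 8.95, and no UMI was seen in the telocyte-gated cells. Vldlr, a lipoprotein receptor that also binds reelin, stood at 120 against 11.2. In the Pi16 cells Cldn10, Chodl and Vldlr stood at 6.82, 6.82 and 27.3 CPM. The 50 Grem1-0 cells with Cd81 and neither Pi16 nor Ptprc held more, 46.6 CPM of Cldn10 and 41.4 CPM each of Chodl and Vldlr, and 1832 cells of the library are in none of the gated groups. Gpc3, a heparan sulphate proteoglycan on the cell surface, stood at 174 against 18.2 but reached 102 in the Pi16 cells. Piezo2, a mechanically gated ion channel, stood at 165 against 20.3, and Inmt, a methyltransferase, at 191 against 10.7. Ogn, a small leucine-rich proteoglycan, stood at 821 against 97.9, a fold of 8.39 (7.62 to 9.24). Telocyte-gated cells held Ogn at a like level, 811 CPM. The matrix genes Postn and Col8a1 stood at 268 against 39.7 and at 195 against 30.1.

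Lower in the Grem1 Cd81 cells were a protease and binding proteins of the Grem1-0 fibroblasts. Adamdec1, a secreted metalloprotease-like protein of gut fibroblasts, stood at 434 CPM in Grem1 Cd81 cells and 9747 in Grem1-0 cells, a log2 fold of -4.49. Its level among barcodes of 20 or fewer UMIs was 6001, and the part of free RNA in these levels was not tested. Mmp10, a matrix metalloproteinase, stood at 5.29 against 418, and Igfbp3 and Igfbp5, which bind insulin-like growth factors, at 22.1 against 714 and 31.8 against 665. Cxcl14, a chemokine, stood at 5.77 against 139 and at 296 in telocyte-gated cells, and Col6a5, a collagen VI chain, at 10.1 against 223. Before thinning, Mmp10 and Cxcl14 had a UMI in 19.0% and 15.2% of Grem1-0 cells, so their levels came from a minority of those cells. Igfbp3, Col6a5, Igfbp5 and Adamdec1 had a UMI in 43.2%, 48.8%, 64.2% and 95.3% of them. Defa24, a Paneth-cell defensin with close copies that counting could split, and Jchain, of antibody-secreting cells, were also among the lowest. Of the Defa24 UMIs in the Grem1-0 cells 99.3% came from 13 cells, and of the Jchain UMIs 98.8% came from 13 cells, so these folds rest on few cells.

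**Figure D1:**
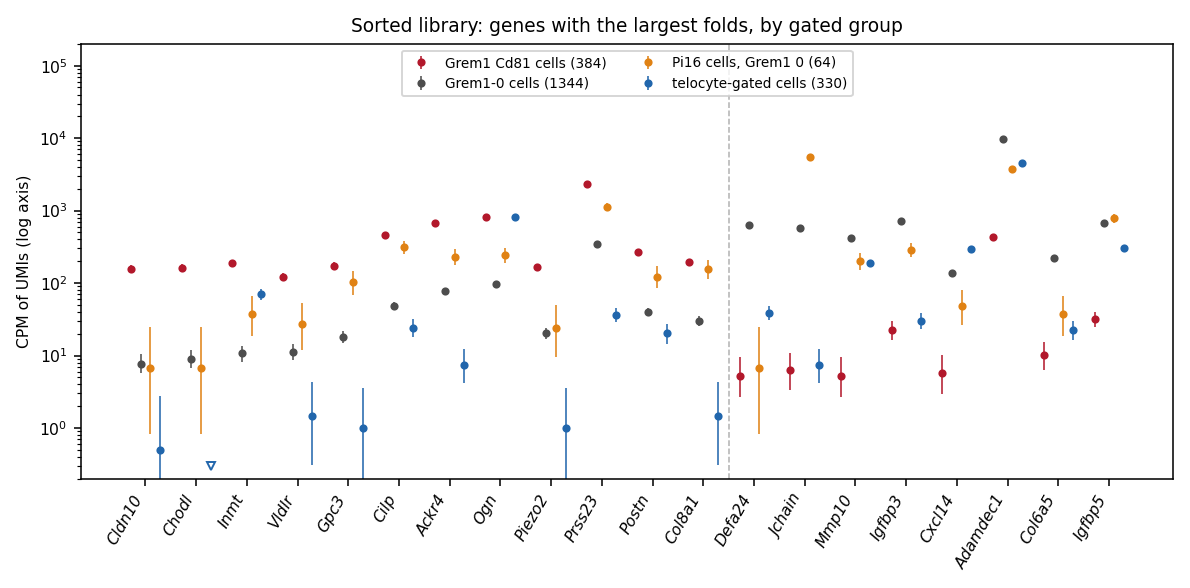
CPM on a log axis for the 12 genes with the largest folds higher and, right of the dashed line, the 8 with the largest folds lower in the sorted library, in Grem1 Cd81 cells (384), Grem1-0 cells (1344), Pi16 cells without Grem1 (64) and telocyte-gated cells (330). Bars are exact 95% Poisson intervals and the open triangle marks 0 UMIs. Ogn is the gene at a like level in Grem1 Cd81 and telocyte-gated cells, 821 and 811 CPM.

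The whole-mesenchyme libraries took no part in choosing the cells or in the lists of largest folds from the sorted library, and they allowed a test. The same gate, with 1 or more UMIs of Pdgfra and none of Ptprc required in every group, gave 112 and 84 Grem1 Cd81 cells, 309 and 294 Grem1-0 cells, and 68 and 69 telocyte-gated cells in the first and second library. UMIs were summed by library and group and tested with edgeR's quasi-likelihood test with the library as a block and Benjamini-Hochberg (BH) adjustment. Of 9030 genes tested, 777 (8.60%) were higher and 604 (6.69%) lower in the Grem1 Cd81 cells at an adjusted p under 0.05, with 2 residual degrees of freedom and genes sharing information on spread.

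Ackr4, Cilp and Prss23 were higher in the Grem1 Cd81 cells of both libraries. Ackr4 stood at 683 and 822 CPM in the Grem1 Cd81 cells, against 29.7 and 22.5 CPM in the Grem1-0 cells, for the first and second library in that order here and below. The groups did not overlap, and the log2 fold was 4.83 (SE 0.135, edgeR BH-adjusted p 5.46e-12). Cilp stood at 640 and 682 CPM against 30.1 and 40.4 CPM (log2 fold 4.23, SE 0.124, edgeR BH-adjusted p 7.37e-12). Prss23 stood at 1640 and 1665 CPM against 113 and 133 CPM (log2 fold 3.75, SE 0.0998, edgeR BH-adjusted p 3.97e-12). All 3 markers were called, against 8.60% of all genes. The rule gates on the sorted library alone, but the markers were named with earlier results of these data known.

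Of the 261 genes past 2-fold higher in the sorted library, 202 were tested in whole mesenchyme, and 176 of those (87.1%) were called higher, 1 lower and 25 in neither direction. Of the 970 genes past 2-fold lower, 647 were tested, and 319 (49.3%) were called lower, 7 higher and 321 in neither direction. Over all 9030 genes tested there, 8.60% were called higher and 6.69% lower. Seen from whole mesenchyme, 176 of the 756 genes called higher and present in the sorted table (23.3%) were past 2-fold there, and 319 of 585 called lower (54.5%). Among all 10705 genes of the sorted library with 20 or more UMIs in either group, 2.44% were past 2-fold higher and 9.06% lower. Across 8802 genes the log2 folds of the sorted library and of whole mesenchyme had a Pearson r of 0.723 and a Spearman rho of 0.530, and genes are not independent replicates.

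**Figure D2:**
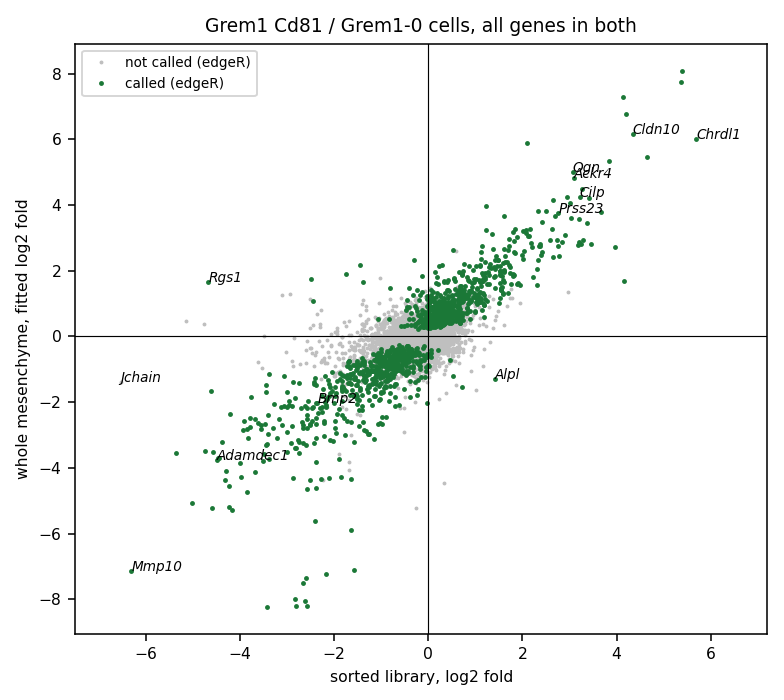
Log2 fold of Grem1 Cd81 over Grem1-0 cells in the sorted library (x axis) and the log2 fold fitted by edgeR in whole mesenchyme (y axis), 1 point a gene, with called genes in green. The marker genes Ackr4, Cilp and Prss23 lie in the upper right corner and Adamdec1 in the lower left, while Rgs1 and Alpl have opposite signs in the 2 data sets.

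The genes with the largest folds in the sorted library were followed in whole mesenchyme. Cldn10 stood at 110 and 164 CPM in Grem1 Cd81 cells and 2.15 and 1.38 CPM in Grem1-0 cells (log2 fold 6.17, SE 0.280, edgeR BH-adjusted p 1.20e-09). Ogn stood at 987 and 961 CPM against 26.7 and 33.5 CPM (log2 fold 5.02, SE 0.117, edgeR BH-adjusted p 1.26e-12). Telocyte-gated cells of whole mesenchyme again had Ogn, at 1224 and 1215 CPM. Chodl stood at 176 and 184 CPM against 3.01 and 0 CPM, and its call was lost in DESeq2, with an adjusted p of 0.423. Vldlr, Gpc3, Piezo2, Postn and Col8a1 were called higher too, with log2 folds of 4.23, 2.82, 4.06, 2.74 and 3.66, whereas Inmt, which DESeq2 did not call, had a smaller log2 fold of 1.69 and stood at 70.1 and 29.4 CPM against 21.5 and 9.17 CPM. Among the lower genes, Adamdec1 stood at 1153 and 311 CPM in Grem1 Cd81 cells and 9519 and 9047 CPM in Grem1-0 cells (log2 fold -3.78), and the Grem1 Cd81 cells of the first library were well above those of the second. Igfbp3 stood at 22.3 and 13.9 CPM against 606 and 672 CPM (log2 fold -5.08), and Mmp10 at 3.34 and 0 CPM against 311 and 267 CPM (log2 fold -7.14).

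Outside the sorted library's leading genes, whole mesenchyme named 12 more. Papss2, which makes the sulphate donor for proteoglycans, stood at 105 and 119 CPM in Grem1 Cd81 cells and 7.31 and 4.13 CPM in Grem1-0 cells (log2 fold 4.24). Cpz, a carboxypeptidase that can bind Wnt proteins, Prlr, the prolactin receptor, and Lbp, the protein that binds lipopolysaccharide, had log2 folds of 4.16, 3.96 and 3.47. Flrt2, a membrane protein of axon guidance, and Fam129a had log2 folds of 3.26 and 3.62. Lowest were Adgrl3, an adhesion receptor, at 3.34 and 0 CPM against 80.9 and 79.8 CPM, and Agt, the angiotensin precursor, at 0 and 3.09 CPM against 51.6 and 50.9 CPM. P2rx1, Srpx2, Tbx2 and Fhl2 followed, with log2 folds of -4.56, -4.29, -4.12 and -4.10. All 12 were picked by fold from genes that edgeR with BH adjustment had called, so their being called is no further result. Their adjusted p was 3.31e-06 or less.

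Markers of other cells were read in the same libraries. In whole mesenchyme edgeR called 8.60% of all genes higher and 6.69% lower, and the calls below stand beside those shares. Lymphatic endothelial markers summed to 116 and 80.2 CPM in Grem1 Cd81 cells of whole mesenchyme and 26.1 and 7.57 CPM in Grem1-0 cells, and the 2 tested, Lyve1 and Mmrn1, were called higher. Blood endothelial markers summed to 111 and 95.4 CPM against 34.2 and 86.8 CPM, with Kdr and Egfl7 called of 4 tested by edgeR and neither by DESeq2. In the sorted library the lymphatic markers summed to 1.92 CPM in Grem1 Cd81 cells and 1.38 in Grem1-0 cells, with Mmrn1 at 0. B and plasma cell markers summed to 17103 and 4677 CPM in Grem1 Cd81 cells and 12869 and 19742 CPM in Grem1-0 cells, and none of 6 was called. All 7 smooth muscle markers tested were lower (median log2 fold -1.80), Acta2 at 42.3 and 47.9 CPM against 316 and 270 CPM. The part of these other cells in the whole-mesenchyme calls was not tested.

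Of 10 BMP antagonists other than Grem1 tested in whole mesenchyme, 5 were called higher, among them Chrdl1, Htra1, Fst and Chrd, against 8.60% of all genes. Twsg1 was called lower, against 6.69% of all genes, and 4 were called in neither direction, with a median log2 fold of 0.53 against -0.01 over all genes. DESeq2 called neither Chrd nor Twsg1. Chrdl1, a chordin-like BMP antagonist, stood at 62.1 CPM in Grem1 Cd81 cells of the sorted library and 1.20 in Grem1-0 cells, a fold of 51.5 (24.3 to 131). In whole mesenchyme Chrdl1 stood at 35.6 and 34.0 CPM against 0.430 and 0.459 CPM (log2 fold 6.00, edgeR BH-adjusted p 3.67e-06). Fst, follistatin, an inhibitor of activins and some BMPs, stood at 5.56 and 27.8 CPM against 0 and 0 CPM, at least 19.9-fold higher with 3 counts over the group as the floor. Htra1, a serine protease that degrades matrix and binds TGF-beta family proteins, was higher by a log2 fold of 0.86, and Chrd, chordin, by 0.79.

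The BMP ligands moved both ways. Of 6 tested in whole mesenchyme, Gdf6, Gdf10 and Bmp1 were called higher and Bmp2, Bmp4 and Bmp6 lower (median -0.09), against 8.60% higher and 6.69% lower over all genes. DESeq2 did not call Bmp1. Gdf6, a ligand of the BMP family, stood at 88.1 CPM against 6.19 in the sorted library and 69.0 and 63.4 CPM against 0 and 3.21 CPM in whole mesenchyme. Gdf10, a divergent member of the family, stood at 42.8 against 5.68 CPM and 31.2 and 58.7 CPM against 3.87 and 6.42 CPM. Bmp1 is not a ligand but a procollagen protease that also cuts chordin, and its log2 fold was 0.52. Bmp2, which signals differentiation along the villus, stood at 27.9 against 143 CPM and 32.3 and 49.5 CPM against 176 and 146 CPM (log2 fold -2.02). Bmp4 was lower by less, at 318 against 558 CPM and 327 and 304 CPM against 515 and 515 CPM (log2 fold -0.70, edgeR BH-adjusted p 5.99e-05). The direction for Bmp4 turned to 0.69 when no Pdgfra UMI was required. Among 10 BMP receptors and targets, Id2, a target of BMP signals, and Bambi, a decoy receptor that DESeq2 did not call, were called higher. The remaining 8, including Id1, Id3, Smad6 and Smad7, were called in neither direction. The shares over all genes were the same 8.60% and 6.69%, and the median log2 fold of this list was 0.18.

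Of 8 R-spondins and Wnt ligands tested in whole mesenchyme, Rspo1, Rspo2, Rspo3, Wnt5a and Wnt9a were called higher, Wnt4 lower, and Wnt5b and Wnt2b in neither direction, against 8.60% higher and 6.69% lower over all genes (median log2 fold 1.36 against -0.01). Rspo3, which amplifies Wnt signals at the stem cell, stood at 161 against 99.1 CPM in the sorted library and 197 and 210 CPM against 68.0 and 71.1 CPM in whole mesenchyme (log2 fold 1.54, edgeR BH-adjusted p 1.19e-05). Rspo2 stood at 45.6 and 23.2 CPM against 4.30 and 5.96 CPM, and Rspo1 at 26.7 and 23.2 CPM against 9.89 and 6.42 CPM. The Rspo1 and Wnt9a calls were lost in DESeq2 (adjusted p 0.645 and 0.296). Wnt5a, a non-canonical Wnt, stood at 46.7 and 51.0 CPM against 22.4 and 20.2 CPM (log2 fold 1.18). Wnt4 stood at 2.23 and 1.55 CPM against 99.4 and 104 CPM, a log2 fold of -5.63. Among 11 Wnt inhibitors and pathway genes, the receptor Fzd4 was higher, and Frzb and Dkk3 were lower by edgeR but not by DESeq2. These counts stood beside the same 8.60% and 6.69% of all genes, and the median log2 fold of the list was 0.001. In neither direction 8 were called, Sfrp1 among them at 2185 CPM against 2718 in the sorted library.

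**Figure D3:**
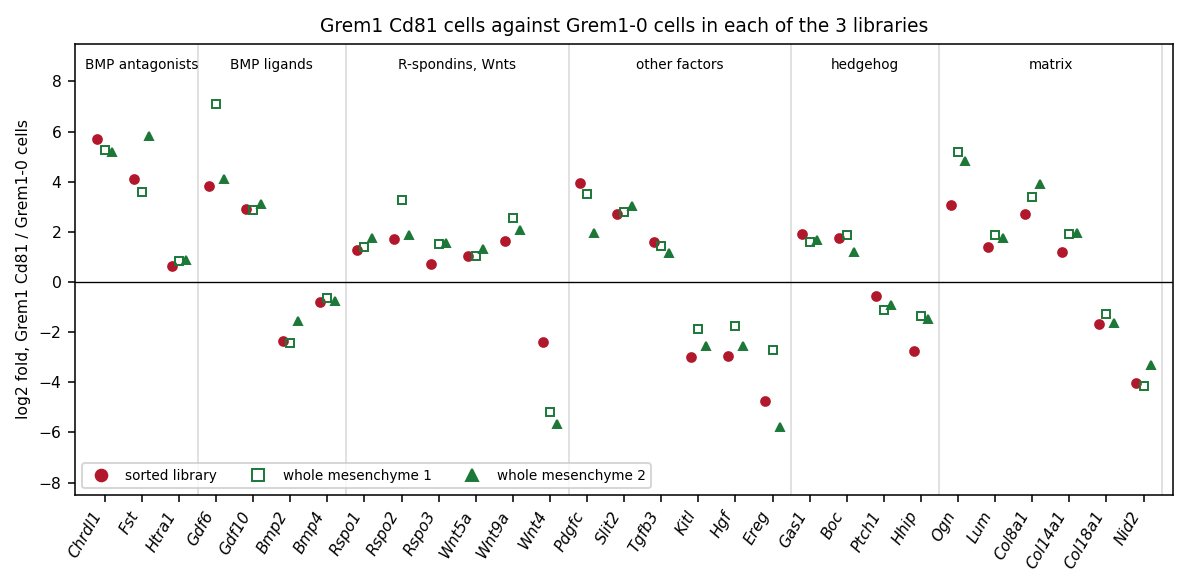
Log2 fold of Grem1 Cd81 over Grem1-0 cells for signalling and matrix genes in the sorted library (circles) and each whole-mesenchyme library (squares and triangles). The whole-mesenchyme points are log2 ratios of CPM plus 0.5. Those of genes with few counts in a group, such as Fst, Gdf6 and Chrdl1, depend on that addition. Each gene keeps its sign in the 3 libraries, Wnt4 and Ereg lying far below 0 and Chrdl1 above 5.

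Other growth factors were also called in both directions. Of 21 growth factors and receptors tested in whole mesenchyme, 5 were called higher, among them Fgf7, Vegfc, Pdgfc and Egfr, 10 lower and 6 in neither direction (median log2 fold -0.39), against 8.60% higher and 6.69% lower over all genes. DESeq2 did not call Vegfc, Pdgfc or Egfr. Fgf7, which acts on epithelium, stood at 38.9 and 54.1 CPM in Grem1 Cd81 cells of whole mesenchyme and 8.17 and 11.0 CPM in Grem1-0 cells. Slit2, a guidance ligand for Robo receptors, stood at 132 and 133 CPM against 18.9 and 15.6 CPM (log2 fold 2.93). Lower were Ereg, an EGF receptor ligand, at 91.3 and 12.4 CPM against 604 and 707 CPM, Kitl, the Kit ligand, and Hgf. Nrg1, an ErbB ligand, had no UMI in Grem1 Cd81 cells of whole mesenchyme and 23.2 and 40.4 CPM in Grem1-0 cells, at least 18.2-fold lower. Gdnf was likewise at 0, at least 8.86-fold lower, and Fgf10 at least 15.4-fold lower, although DESeq2 did not call Fgf10.

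Matrix genes were called in both directions. Of 8 small leucine-rich proteoglycans tested in whole mesenchyme, Ogn, Dcn and Lum were called higher and Ecm1 and Bgn lower, against 8.60% higher and 6.69% lower over all genes. Dcn, decorin, stood at 34128 against 16689 CPM in the sorted library, and Lum, lumican, at 4145 against 1570. Of 16 basement membrane genes, 4 were higher (Col4a5, Nid1, Lamb2 and Col4a6, of which DESeq2 did not call Lamb2 and Col4a6) and 8 lower, against the same 8.60% and 6.69%, among the lower Nid2, nidogen, at 3.34 and 6.18 CPM against 68.0 and 65.6 CPM. Col14a1, a fibril-associated collagen, stood at 2242 and 2390 CPM against 595 and 612 CPM. Of 13 complement and coagulation genes, 10 were called higher, against 8.60% of all genes (median log2 fold 0.76), among them C3, the central complement protein, at 3404 and 3821 CPM against 774 and 778 CPM. DESeq2 did not call 3 of the 10 (Cfb, C2 and C1s1). In the sorted library 3 of 13 (F3, Cfb and C2) were past 2-fold higher, 1 (Procr) was past 2-fold lower, and C3 stood at 2423 against 1433 CPM.

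Of 20 chemokines and cytokines tested in whole mesenchyme, 4 were called higher (Ackr4, Cxcl13, Il6 and Il33) and 12 lower, against 8.60% and 6.69% of all genes, with a median log2 fold of -0.68. DESeq2 did not call Il6 and Il33. Cxcl13, which attracts B cells, stood at 298 and 352 CPM against 90.8 and 83.5 CPM, and Ccl11, which recruits eosinophils, at 345 and 292 CPM against 974 and 870 CPM. Retinoid and prostaglandin genes were lower for 6 of 14, against 6.69% of all genes, and higher for 4, against 8.60%. Among the lower was Aldh1a3, which makes retinoic acid, at 63.4 and 35.6 CPM against 537 and 555 CPM. Hedgehog genes were divided, Gas1 and Boc, co-receptors of hedgehog ligands, being higher by log2 folds of 1.63 and 1.59, and the pathway targets Ptch1 and Hhip lower, with log2 folds of -1.03 and -1.41; DESeq2 did not call Boc and Hhip. Among 23 transcription factors of fibroblasts, 8 were higher and 7 lower, against 8.60% and 6.69% of all genes. Osr1 stood at 140 and 111 CPM against 30.5 and 23.9 CPM, Foxp2 at 148 and 141 CPM against 23.2 and 34.4 CPM, and Ebf1 at 211 and 261 CPM against 35.3 and 39.0 CPM. Foxf2 stood at 7.79 and 9.27 CPM against 54.6 and 63.8 CPM, and Nkx2-3 at 172 and 175 CPM against 402 and 428 CPM.

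The levels were next read by how many Grem1 UMIs a cell had. In the classes of 3 to 5, 6 to 10 and 11 or more Grem1 UMIs, which held 157, 147 and 80 Grem1 Cd81 cells, Ackr4 stood at 564, 724 and 732 CPM and Prss23 at 2194, 2368 and 2521. Cldn10 ran 116, 157 and 217 and Chodl 115, 163 and 234 over the same classes, so both were higher in cells with more Grem1, while Adamdec1 ran 445, 437 and 411. The 63 cells at exactly 3 Grem1 UMIs were just inside the gate, and 59 cells with 2 that met the rest of the gate were just outside it. Those with 2 UMIs had 661 CPM of Ackr4 and 988 of Adamdec1, and the 60 cells with 1 UMI that met the rest of the gate had 432 of Ackr4 and 2389 of Adamdec1.

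Cells that met only part of the gate were read in the same way. In 50 Grem1-0 cells with a Cd81 UMI and neither Pi16 nor Ptprc, Ackr4 stood at 259 CPM, Cilp at 197, Prss23 at 1268 and Adamdec1 at 4871. Set against those 50 cells in place of all Grem1-0 cells, the log2 folds of the Grem1 Cd81 cells were 1.37 for Ackr4, 1.21 for Cilp, 0.89 for Prss23 and 1.76 for Cldn10. In 214 cells that met the gate but for having no Cd81 UMI, Ackr4 stood at 175 CPM, Prss23 at 639 and Adamdec1 at 5961. In 117 cells that met the gate, Cd81 included, but for a Pi16 UMI, Ackr4 stood at 726 CPM, Cilp at 638 and Adamdec1 at 437, while Mfap5 stood at 636. Cells with Grem1, Cd81 and Pi16 thus held Ackr4 and Cilp at levels at or above those of the Grem1 Cd81 cells, and cells with Grem1 but no Cd81 held lower levels of Ackr4 and Prss23. Median depth in the 50 cells was 3538.5 UMIs, and its part in their levels was not tested.

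**Figure D4:**
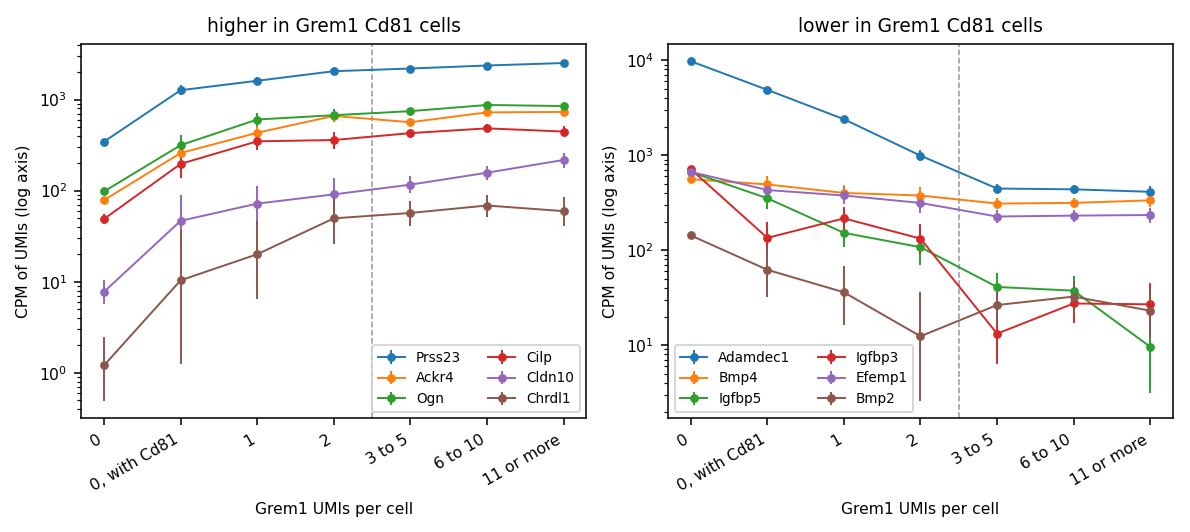
CPM on a log axis by the number of Grem1 UMIs in a cell, for genes higher (left) and lower (right) in Grem1 Cd81 cells of the sorted library. The first class holds all Grem1-0 cells, the second the 50 of them with Cd81 and neither Pi16 nor Ptprc. The dashed line marks the gate's threshold. Bars are exact 95% Poisson intervals, and Adamdec1 runs from 9747 in Grem1-0 cells to 411 in cells with 11 or more Grem1 UMIs.

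Pi16 is known as a marker of adventitial fibroblasts, and the gate removed cells with it. Against the 64 Pi16 cells without Grem1, none of 8 adventitial markers was 2-fold higher in the Grem1 Cd81 cells and 6 were 2-fold lower (Fn1, Cd55, Sema3c, Anxa3, Ly6c1 and Cd248), with a median log2 fold of -1.49. Over 7664 genes, 357 (4.66%) were 2-fold higher and 403 (5.26%) lower against the Pi16 cells. Set beside Grem1-0 cells in the sorted library, 1 of 8 adventitial markers (Dpt) was 2-fold higher and 1 (Fn1) 2-fold lower. The shares of all genes there were 2.44% and 9.06%. In whole mesenchyme edgeR called 3 of 8 higher than in Grem1-0 cells (Dpt, Ly6a and Cd248) and 1 lower (Fn1). It called 8.60% of all genes higher and 6.69% lower. Cd55, a complement regulator, stood at 163 CPM in Grem1 Cd81 cells and 481 in Pi16 cells, and Cd248, endosialin, at 89.5 and 239. Igfbp6 and Mfap5, a microfibril protein, stood at 359 and 369 CPM in Grem1 Cd81 cells and 692 and 1071 in Pi16 cells. Against telocyte-gated cells, 867 of 8919 genes (9.72%) were 2-fold higher and 1983 (22.2%) lower in the sorted library, and 1422 of 9030 (15.7%) were called higher and 1146 (12.7%) lower in whole mesenchyme by edgeR with BH adjustment. Cd34 stood at 698 CPM in Grem1 Cd81 cells, 693 in Grem1-0 cells and 15.8 in telocyte-gated cells.

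The spread of counts among the Grem1 Cd81 cells differed by gene. Over 469 genes with a mean of 0.5 or more in 376 cells thinned to 1800 UMIs, the variance over the mean had a median of 1.17, and it was largest for Malat1 (10.3), Dcn (7.15), Mgp (6.15), Gsn (5.96) and Adamdec1 (5.22). Adamdec1 was absent from 62.8% of the thinned cells and reached 23 UMIs in 1 of them. Cxcl13 was absent from 74.5% and reached 14. In unthinned counts 4 of the 384 cells held 29.1% of the 901 Adamdec1 UMIs, 90 of them in 1 cell.

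In bulk libraries the PDGFRAlo cells were set against telocytes. As fewer cells of a type and less RNA per cell cannot be told apart in bulk, these values describe the sorted populations. Of 14893 genes, 1800 (12.1%) were called higher and 412 (2.77%) lower in PDGFRAlo cells by edgeR with BH adjustment. Grem1 stood at 276 and 218 CPM in PDGFRAlo cells and 1.43 and 0.545 CPM in telocytes (log2 fold 7.98, edgeR BH-adjusted p 0.000391), and Cd81 at 210 and 321 CPM against 7.91 and 4.30 CPM. Ackr4 stood at 437 and 860 CPM against 16.5 and 1.94 CPM (log2 fold 6.15, edgeR BH-adjusted p 0.00367), Cilp at 700 and 1551 CPM against 79.2 and 38.7 CPM, and Prss23 at 674 and 2197 CPM against 18.4 and 36.9 CPM. All 5 genes were called higher by edgeR with BH adjustment, against 12.1% of all genes. Chrdl1 stood at 31.9 and 44.1 CPM against 0.428 and 0.0605 CPM, Rspo2 at 23.5 and 47.6 CPM against 0.0713 and 0.0605 CPM, and Gdf6 at 23.7 and 155 CPM against 1.14 and 1.51 CPM. Foxp2 stood at 54.0 and 52.7 CPM in PDGFRAlo cells and had no read in telocytes, at least 460-fold higher.

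Against telocytes, some genes higher in Grem1 Cd81 than in Grem1-0 cells were lower in bulk PDGFRAlo cells, and the like single-cell comparison, Grem1 Cd81 against telocyte-gated cells of whole mesenchyme, also had Ogn and Wnt5a lower (log2 folds -0.32 and -2.34, edgeR BH-adjusted p 0.0133 and 2.97e-08). Ogn was lower in PDGFRAlo cells, at 351 and 621 CPM against 2526 and 3025 CPM in telocytes (log2 fold -2.51, edgeR BH-adjusted p 0.0109), and the call was lost without PDGFRAlo replicate 1 (0.0831) or telocyte replicate 2 (0.0530). Wnt5a stood at 33.4 and 34.7 CPM against 295 and 342 CPM, and both libraries of PDGFRAlo cells were below both of telocytes. Bmp4, lower in Grem1 Cd81 cells than in either Grem1-0 or telocyte-gated cells of whole mesenchyme, was lower in bulk too, at 431 and 389 CPM against 1074 and 994 CPM. In bulk Bmp4 lost its call whichever of the 4 libraries was left out. Adamdec1 was not called and its libraries overlapped, at 12295 and 10841 CPM against 8296 and 12577 CPM (log2 fold 0.15, edgeR BH-adjusted p 0.903). Rspo3 stood at 67.6 and 80.3 CPM against 21.0 and 29.3 CPM (edgeR BH-adjusted p 0.0442), a call that leaving out any 1 library ended (0.105 to 0.277).

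Of the 261 genes 2-fold higher in the sorted Grem1 Cd81 cells, 247 were tested in bulk, and 143 (57.9%) were called higher in PDGFRAlo cells and 11 (4.45%) lower, against 12.1% and 2.77% of all genes. Of the 970 lower genes, 895 were tested, and 180 (20.1%) were called higher and 111 (12.4%) lower, against the same 12.1% and 2.77%. Markers of other cells were higher in the PDGFRAlo libraries too, blood endothelial markers at 2851 and 988 CPM in PDGFRAlo cells and 67.8 and 43.2 CPM in telocytes, and macrophage markers at 599 and 298 CPM against 54.1 and 45.0 CPM. B and plasma cell markers summed to 2262 and 2485 CPM against 437 and 364 CPM and epithelial markers to 68.2 and 170 CPM against 7.77 and 7.45 CPM. Their part in the bulk calls was not tested.

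**Figure D5:**
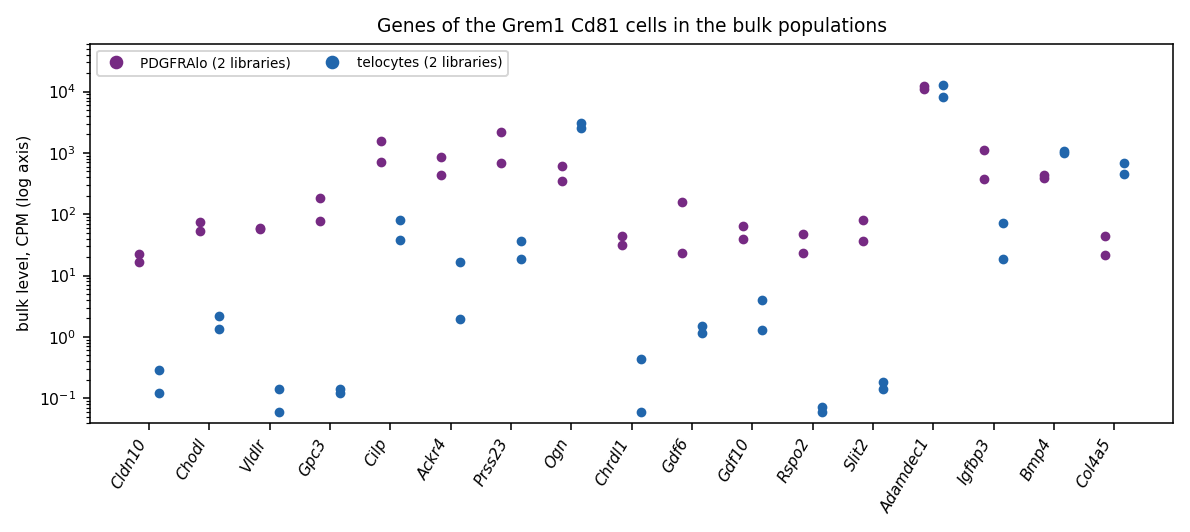
CPM on a log axis in the 2 PDGFRAlo (left of each pair) and 2 telocyte bulk libraries, 1 point a library. Ackr4, Cilp and Prss23 are higher in both PDGFRAlo libraries, Ogn, Bmp4 and Col4a5 are lower, and the libraries overlap for Adamdec1.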

How the data were processed

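Expression was measured in 3 single-cell libraries (1 sorted, 2 whole mesenchyme) and 8 bulk libraries of mouse small intestine. The authors deposited UMI counts per cell and gene and read counts per gene. The submitters' processing notes name STAR, Cell Ranger 2.1.1 and 3.0.2, Seurat and mm10, and the program that counted bulk reads is not given in the sources used here. Bulk libraries held 11454466 to 21339417 counts for telocytes and PDGFRAlo cells, and 26 gene names turned into dates by a spreadsheet (0.131% to 0.523% of counts) were left out.

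Cells were gated on raw UMIs with Python 3.11.15. Sorted counts were summed by group, and whole-mesenchyme and bulk counts were tested with edgeR 4.0.16 (TMM, filterByExpr, quasi-likelihood, BH) in R 4.3.3, with all 8 bulk libraries in the fit. The whole-mesenchyme fit blocked on library, since the groups come from the same libraries, and the bulk fit had no block. DESeq2 1.42.0 was an alternative. The 2 whole-mesenchyme libraries differed beyond counting noise (mean chi-square 3.90 for Grem1 Cd81 and 2.69 for Grem1-0 cells). The median gene was nearer to counting noise, with a chi-square of 0.548 and 0.533 in the same groups against 0.455 by counting alone. The fits and fold intervals were tested on simulated data with known folds.

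Genes named are the 12 highest and 8 lowest folds of the sorted library with 50 or more UMIs and 100 or more CPM, up to 4 per gene list, the label markers, the 6 highest and 6 lowest further whole-mesenchyme calls at 50 or more CPM, and the 10 most variable genes; others were picked after their values were seen. Members and lists were chosen with earlier results of these data known.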

Additional observations from a re-analysis of the deposited data

Results flagged for a closer look

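For 8 genes the log2 fold of Grem1 Cd81 cells over Grem1-0 cells was past 2-fold in the sorted library and called by edgeR with BH adjustment in the opposite direction in whole mesenchyme. The difference between the data sets was not itself tested. Whole-mesenchyme log2 folds were 2.18 for Saa3, 1.09 for Cd52, 1.66 for Gm3336, 1.67 for Rgs1, 1.91 for Cd83, 1.76 for Fabp4 and 0.55 for Gm12216, against sorted log2 folds of -1.45, -2.45, -1.39, -4.67, -1.74, -2.49 and -1.07 in the same order. For Alpl, an alkaline phosphatase, the values were -1.30 in whole mesenchyme and 1.41 in the sorted library. Saa3, Cd52, Gm3336, Rgs1, Cd83 and Fabp4 had 1 to 6 UMIs in the Grem1 Cd81 cells of the sorted library, Alpl had 39 and Gm12216 had 273.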

How the results depend on the processing

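In the sorted library, the counts of 261 higher and 970 lower genes became 115 and 337 with 100 UMIs required. The lower count became 469 against the 50 Grem1-0 cells with Cd81 and neither Pi16 nor Ptprc. Against those cells 59 of the named genes had folds outside the counting interval of the fold against all Grem1-0 cells, 6 did not, and the log2 fold of Sema3d was -0.058, against 2.98 otherwise. In whole mesenchyme, 777 higher and 604 lower genes became 327 and 215 in DESeq2, 1996 and 2137 with no Pdgfra requirement, and 819 and 644 with no replicate block. With no Pdgfra requirement the log2 folds of Bmp4, Tgfb2 and Adamts5 were 0.69, 0.50 and 0.17. The cause of these shifts was not tested. DESeq2 ended the calls of 17 genes named by rule, among them Chodl, Inmt, Wnt9a, Frzb, Bambi, Tgfb2, Pdgfc, Adamts5, Cfb, C2, Ccl8, Ptger2, Hhip, Boc, Nr2f1 and Jund. Leaving out a whole-mesenchyme library left no residual degrees of freedom, so it gave values and no count, and no fit against Pi16 cells was run there, as the libraries had 3 and 7 such cells. A doublet score of 0.25, chosen after seeing the data, gave 821 and 662.

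In bulk, 1800 higher and 412 lower genes became 889 to 1533 and 158 to 291 when 1 library was left out. The lower count was 638 in DESeq2 and 640 with the 4 compared libraries alone. With the replicate block the counts were 1724 and 407, and same-numbered libraries had a correlation of 0.0977 in their deviations, so the numbers were not taken as pairs. With 2 libraries a group, small differences were not detectable.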
